A study of Morella rubra with 12 samples.

Results

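A set of 114 genes had a lower RNA level in ripe red DK fruit than in ripe pale BDK fruit of Chinese bayberry (Morella rubra). In BDK their level at 85 days was less than 2 times that at 70 days, so smaller late rises are included. They are 114 of the 119701 assembled genes of the study. The rule took the mean FPKM (fragments counted on a gene, set against its length and the library's size) of each group plus 1. Members were selected on these values and had a mean of 5 FPKM or more in BDK at 85 days, at least 2 times the DK value on that scale, every BDK library at 85 days above every DK library, less than 2 times the BDK value at 70 days, and at least 1 DK library above 0. Because the DK and the BDK values at 70 and 85 days chose the genes, differences among these groups are described here and not tested. The BDK libraries at 55 days played no part in the choice.

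DK is the red-fruited cultivar Dongkui (colour label black), sampled ripe at 85 days after flowering, and BDK the pink-white strain Baidongkui (colour label pink), sampled at 55, 70 and 85 days. No treatment or introduced allele is named for either. Each of the 4 groups holds 3 libraries of whole-fruit RNA. No label states that the libraries of a group came from different trees, and p-values below therefore cover only the variation among these libraries, part of which could be technical.

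Anthocyanins, flavonoid pigments stored in the vacuole, colour ripe red bayberries, and in many fruits MYB and bHLH transcription factors switch on the enzymes that make them. Ripening also brings sugar gain, acid loss and softening of the cell walls. The files do not pair the assembly's gene IDs with names, so members are known by ID only, and neither their roles, nor pathway lists, nor markers of fruit cell types were analysed here. IDs that share a c number (c50438_g1 and c50438_g2) belong to 1 assembly cluster and can share reads, which makes their separate levels uncertain.

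The libraries were uneven in ways that touch these genes. Between 32084 and 48737 genes lay above 0 per library. A split crossing the groups, found by counting which genes lie above 0 where, set BDK at 85 days replicate 3, BDK at 70 days replicates 2 and 3 and all DK libraries apart from the other 6, with 876 genes at 0 in the first 6 and above 0 in the rest. The rule bars such genes, since it asks for a DK library above 0, and 104 of the 114 members were above 0 in all 12 libraries. The choice of members leaned on BDK at 85 days replicate 1: without it the rule gave 92 genes, of which 58 were among the 114, so 56 were lost. In 106 members replicate 1 plus 1 was at least 2 times the DK mean plus 1, while this held for replicate 2 in 42 and for replicate 3 in 76.

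Members were mostly genes of modest level. Their group means had a median of 4.402 FPKM in DK, against 14.0, 12.6 and 13.1 FPKM in BDK at 55, 70 and 85 days. In DK 63 members averaged below 5 FPKM and 4 at least 100 FPKM, while in BDK at 85 days 13 averaged at least 100 FPKM. Together the members held 0.195% ± 0.022 of the summed FPKM in DK, against 0.529% ± 0.167, 0.580% ± 0.150 and 0.574% ± 0.190 in BDK at 55, 70 and 85 days (SD, n = 3). In bulk fruit RNA, fewer cells of a type and less RNA per cell cannot be told apart.

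**Figure D1:**
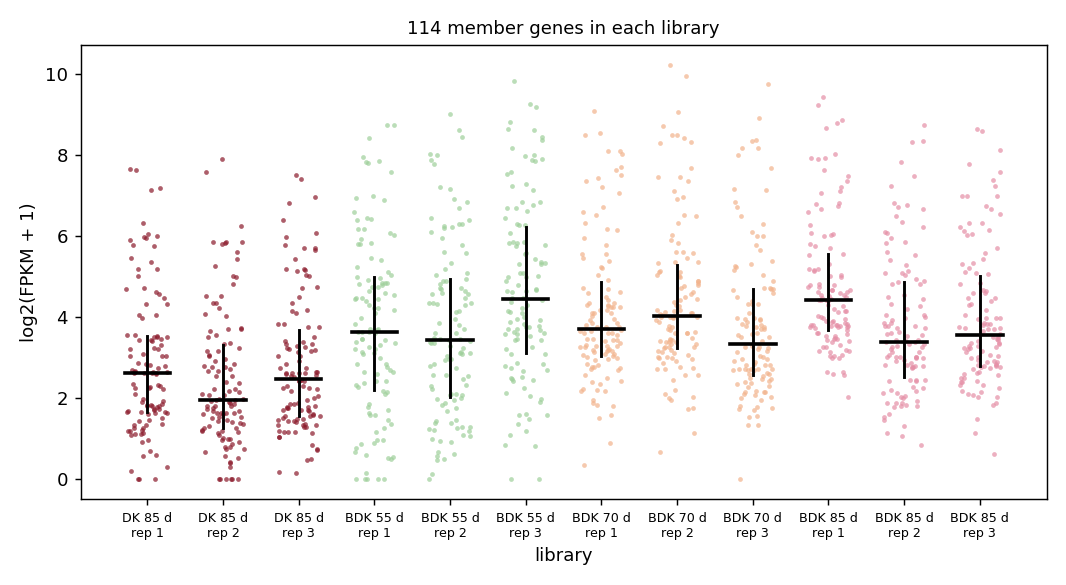
Level of each of the 114 members, as log2(FPKM + 1), in the 12 libraries, with 1 point per gene, a thick bar for the median and a line from the lower to the upper quartile. The 3 DK libraries have medians of 2.85 to 5.13 FPKM, and the 9 BDK libraries medians of 9.12 to 20.6 FPKM.

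The shortfall in DK was mostly between 2-fold and 4-fold. BDK at 85 days over DK, on the scale of mean FPKM plus 1, had a median of 2.69 over the members and ran from 2.00 to 10.6, with 18 members at 4 or more and 5 at 8 or more. In 7 members at least 1 DK library was at 0, and in 2 of these there were 2. Another 5 genes met all other conditions but were at 0 in every DK library. Limma called 34 of the 114 lower in DK, where 3.05% of all tested genes were called lower. The rule used this contrast, so nothing is read from that count.

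Around the limits the choice is one of degree. Just inside the 2-fold limit were c45978_g2, with means of 2.16 FPKM in DK and 5.31 FPKM in BDK at 85 days, and c56402_g1, with 5.49 FPKM in DK and 12.01 FPKM in BDK. Just outside it were c48813_g2, with 88.9 FPKM in DK and 179 FPKM in BDK at 85 days (a ratio of 1.999), and c4024_g1, with 3.81 FPKM in DK and 8.53 FPKM in BDK (1.98). For the late limit, c53609_g1 and c44577_g1 lay inside at 1.96 and 1.95 times the 70-day value, and c40641_g1 and c54285_g2 outside at 2.01 and 2.02 times. Ratios of BDK over DK between 2 and 2.2 were held by 22 members, and 46 genes that met the other conditions had ratios between 1.8 and 2.

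The most abundant members showed several courses in BDK. Gene c50103_g1 had 198, 238 and 179 FPKM in DK, against 19.8, 14.5 and 20.2 FPKM in BDK at 55 days, 169.6, 358 and 323 FPKM at 70 days and 686, 319.7 and 382 FPKM at 85 days. Its DK libraries lay inside the range of BDK at 70 days and far above BDK at 55 days. Gene c50257_g1 had 197, 189.6 and 167 FPKM in DK, against 85.2, 60.7 and 113 FPKM in BDK at 55 days, 257, 359 and 326 FPKM at 70 days and 438, 322 and 398 FPKM at 85 days. Here DK stood between BDK at 55 days and BDK at 70 days with no overlap on either side.

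A pair of cluster mates was steady through early BDK. Gene c50438_g1 had 54.1, 47.8 and 50.6 FPKM in DK, against 222, 218 and 255 FPKM in BDK at 55 days, 271, 313 and 286 FPKM at 70 days and 239.8, 104 and 149 FPKM at 85 days. Its mate c50438_g2 had 60.3, 56.5 and 53.2 FPKM in DK, against 225, 233 and 249 FPKM, 272, 318 and 289 FPKM, and 236, 111 and 165 FPKM in BDK at the 3 stages. The values of both are so alike that they may count the same transcripts, and all 9 BDK libraries of each lay above all DK libraries. The same held for c54501_g2, at 58.6, 56.7 and 62.0 FPKM in DK, against 228, 252 and 183 FPKM in BDK at 55 days, 359.9, 339.9 and 203 FPKM at 70 days and 109, 428 and 217 FPKM at 85 days.

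Other abundant members varied widely within BDK. Gene c55282_g1 had 144, 56.0 and 112 FPKM in DK, against 54.3, 53.8 and 390.4 FPKM in BDK at 55 days, 206, 415 and 138 FPKM at 70 days and 464, 226 and 191 FPKM at 85 days. A single 55-day library was thus above all DK libraries and the other two below all of them. Gene c55278_g1 had 138, 74.8 and 124 FPKM in DK, against 245, 260.4 and 608 FPKM, 537, 530.4 and 256 FPKM, and 404, 179 and 278.5 FPKM in BDK at 55, 70 and 85 days. In this gene every BDK library exceeded every DK library.

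**Figure D2:**
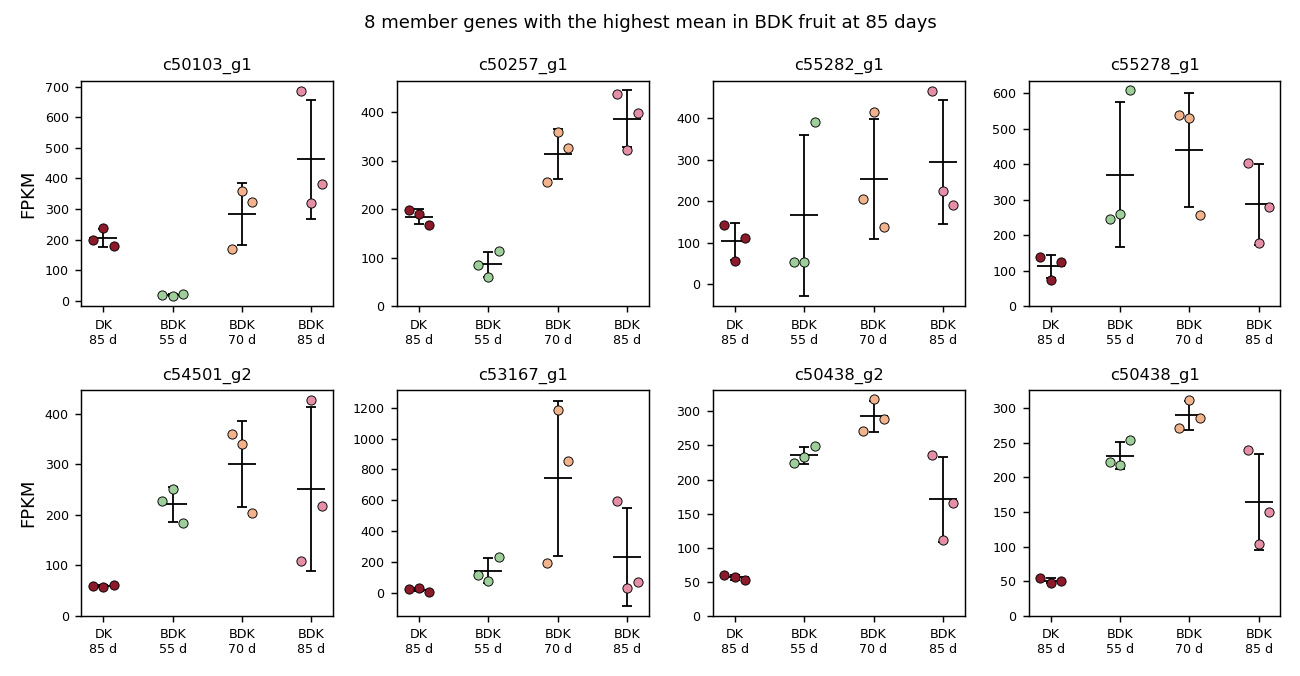
FPKM of the 8 members with the highest mean in BDK at 85 days, with 1 point per library, a bar for the mean and whiskers of 1 SD (n = 3 per group). DK lies below BDK at 85 days in each panel, as the rule requires, while BDK at 55 days lies below DK for c50103_g1 and c50257_g1, above it for c50438_g1, c50438_g2, c53167_g1, c54501_g2 and c55278_g1, and on both sides of it for c55282_g1.

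Among the members farthest below BDK in DK, some had very unequal BDK libraries. Gene c53167_g1, with the largest ratio (10.6), had 25.04, 31.1 and 7.21 FPKM in DK, against 117, 77.3 and 235 FPKM in BDK at 55 days, 196, 1183 and 852 FPKM at 70 days and 599, 33.0 and 69.7 FPKM at 85 days. Its lowest 85-day BDK library exceeded its highest DK library by little, and the ratio rests mainly on replicate 1. Gene c56154_g2 (10.03) had 10.4, 0 and 12.5 FPKM in DK, against 30.15, 19.0 and 911 FPKM in BDK at 55 days, 164, 124 and 62.75 FPKM at 70 days and 131, 34.3 and 91.7 FPKM at 85 days. One 55-day library stood far above all others, and all 9 BDK libraries stood above DK.

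Low-level members with large ratios were uneven too. Gene c50166_g1 had 2.07, 0.66 and 0.78 FPKM in DK, against 50.7, 2.63 and 5.90 FPKM in BDK at 85 days. Gene c51182_g1 had 0.48, 0.97 and 0.40 FPKM in DK, against 34.7, 1.48 and 2.64 FPKM. Gene c41227_g2 had 0.22, 0.22 and 0.10 FPKM in DK, against 20.2, 0.79 and 1.77 FPKM. In these 3 genes a single BDK library, replicate 1, held most of the signal at 85 days. More even at 85 days was c54763_g2, at 0, 0 and 1.85 FPKM in DK, against 17.2, 10.7 and 12.02 FPKM in BDK, although at 55 days BDK had 6.96, 1.25 and 138 FPKM.

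Whether DK resembled BDK at a younger stage differed between members. The mean of BDK at 55 days plus 1 was at least 2 times that of DK in 64 members, where 12.7% of the 13889 genes that averaged 5 FPKM or more in BDK at 85 days (the expressed genes) had such a ratio. It was at most 0.5 times that of DK in 9 members, where 12.4% of the expressed genes had this. All 55-day BDK libraries lay above all DK libraries in 65 members (57.0%), against 32.2% of the expressed genes. All 70-day BDK libraries did so in 85 members, against 30.2%, and all 9 BDK libraries in 55, against 3.97%. The DK values were chosen to be low and the rule fixes the 85-day part of this pattern and limits the 70-day part, so these shares describe the set and test nothing.

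The step from 55 to 70 days in BDK asks how the members behaved before the step that the rule limits. It involves 55-day libraries that the rule did not see. The 70-day libraries entered the rule only through the upper limit on the late change, which favours members that are high at 70 days. All 114 members passed the filter on low values, and the level that the rule asks of BDK at 85 days makes that likely. Limma called 23 members higher at 70 than at 55 days, where 23.0% of all 23074 tested genes were called higher, and 25 lower, where 28.1% were. The 48 members called make 42.1%, against 51.0% of all genes tested, which is a share no higher than the background. With the library split as a term in the model 14 members were called higher and 20 lower. The share of all tested genes called with that term was not counted, so nothing about the members is read from these 2 counts. Without that term, the median log2 change of the tested members was 0.34, against -0.07 over all genes, and their median SE was 0.43, against 0.18.

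By size the members fell into 3 courses. At 70 days 25 members were at least 2-fold higher than at 55 days in mean FPKM plus 1, of which limma called 20. A further 35 were at least 2-fold lower, of which it called 23, and 54 were within 2-fold, with 3 called higher and 2 lower. These classes use means, which 1 library can set. Gene c47481_g1, classed as lower, had 0, 0.97 and 108 FPKM at 55 days, against 4.33, 15.9 and 10.25 FPKM at 70 days. Limma's log2 change was 0.74 for it, and 0.52, 0.61 and 0.45 for c54995_g1, c55871_g1 and c56154_g2, also classed as lower. Among the 13775 expressed genes that are not members, 10.5% were at least 2-fold higher, 7.75% at least 2-fold lower and 81.8% within 2-fold. For the members the shares were 21.9%, 30.7% and 47.4%. Of the other genes limma called 1263 of 1444 in the higher class and 896 of 1068 in the lower class. Among their 11263 genes within 2-fold it called 2914 higher and 2190 lower. From 70 to 85 days, which the rule capped at 2-fold, 70 members were between 1 and 2 times, 38 between 0.5 and 1 times and 6 below 0.5 times their 70-day value. By mean FPKM, which 1 library can likewise set, the highest BDK stage was 55 days in 45 members (39.5%), 70 days in 23 (20.2%) and 85 days in 46 (40.4%). The shares of the other expressed genes were near these, at 32.8%, 24.4% and 42.8%.

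**Figure D3:**
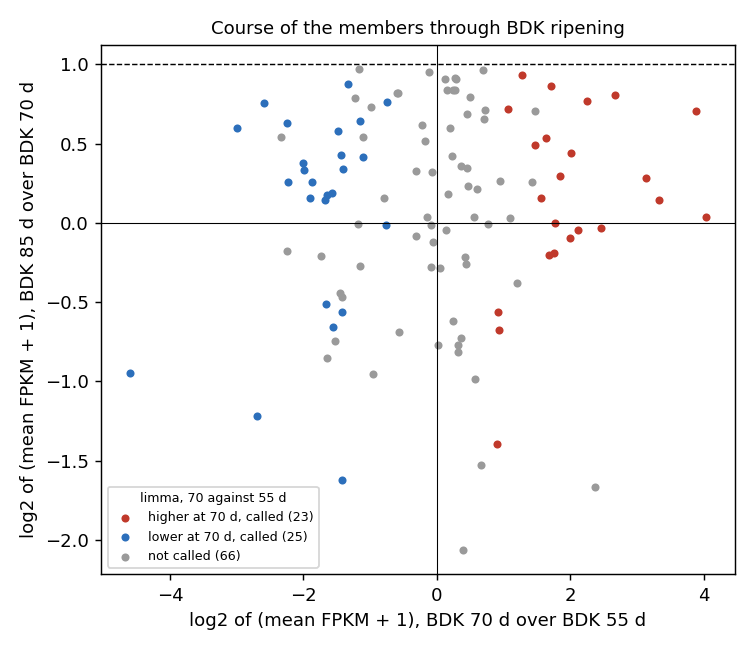
Change of each member's mean FPKM plus 1 in BDK, as log2 ratios of 70 over 55 days (horizontal) and of 85 over 70 days (vertical), with 1 point per gene, coloured by limma's call for the first step. The dashed line is the rule's limit of 2-fold, and points spread to both sides of 0 on both axes, with 23 called higher, 25 called lower and 66 not called.

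Among the called rises, c56667_g2 changed most and was then level. It had 42.9, 39.3 and 37.4 FPKM at 70 days, against 1.23, 1.30 and 1.96 FPKM at 55 days, a log2 change of 4.04 ± 0.66 (SE) with limma's adjusted p of 0.00045. At 85 days it had 9.79, 1.01 and 19.2 FPKM in DK, against 46.0, 37.9 and 39.15 FPKM in BDK. Thus BDK held a narrow range at 70 and 85 days, while the DK libraries were spread widely below it.

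The abundant c50103_g1 described above rose by 3.88 ± 0.34 on the log2 scale (SE, limma's adjusted p = 6.52e-06), with no overlap between 70 and 55 days. Gene c55778_g2 had 21.4, 14.2 and 18.9 FPKM at 70 days, against 0.45, 0.52 and 1.76 FPKM at 55 days (log2 change 3.35 ± 0.25, adjusted p = 2.37e-06). In ripe fruit it had 8.83, 9.26 and 8.07 FPKM in DK, against 22.3, 14.99 and 23.1 FPKM in BDK. Its DK level was even across libraries and lay between the 2 early BDK stages.

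Gene c56445_g1 had 8.78, 19.6 and 11.9 FPKM at 70 days, against 0.49, 0.40 and 2.91 FPKM at 55 days (log2 change 2.75 ± 0.43, adjusted p = 0.00037). In ripe fruit it had 10.75, 10.74 and 8.21 FPKM in DK, against 26.7, 32.8 and 13.3 FPKM in BDK. The DK values fell inside or just under the range of BDK at 70 days. These 4 rises were called in all 22 other settings tried. By contrast c51182_g1, with 2.53, 23.4 and 5.47 FPKM at 70 days, against 0.10, 0.08 and 0.75 FPKM at 55 days, had an adjusted p of 0.039 that was above 0.05 in 12 of its 22 other settings, over a range of 0.0045 to 0.14.

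The largest called fall was that of c31283_g1, which had 23.1, 11.7 and 4.12 FPKM at 70 days, against 338, 345.6 and 328 FPKM at 55 days (log2 change -4.81 ± 0.49, limma's adjusted p = 1.99e-05). In ripe fruit it had 1.52, 0.42 and 1.22 FPKM in DK, against 3.04, 7.03 and 8.69 FPKM in BDK. Its young-fruit level was uniform, and both strains were low when ripe, DK lower.

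Gene c56402_g1 had 7.15, 8.56 and 7.10 FPKM at 70 days, against 70.7, 75.2 and 56.0 FPKM at 55 days (log2 change -2.93 ± 0.14, adjusted p = 9.65e-08). In ripe fruit it had 5.60, 6.51 and 4.37 FPKM in DK, against 12.55, 11.2 and 12.3 FPKM in BDK. This was the most even of the falls, with narrow ranges in all 4 groups.

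Gene c43615_g1 had 4.20, 5.58 and 4.36 FPKM at 70 days, against 27.3, 19.1 and 53.9 FPKM at 55 days (log2 change -2.41 ± 0.34, adjusted p = 0.00018). In ripe fruit it had 1.25, 0.65 and 1.49 FPKM in DK, against 10.8, 6.63 and 8.45 FPKM in BDK. At 85 days BDK was thus above its own 70-day range, and DK was below every BDK library. The last of these falls was c54402_g1, with 17.9, 7.72 and 6.11 FPKM at 70 days, against 41.0, 35.4 and 85.1 FPKM at 55 days (log2 change -2.21 ± 0.43, adjusted p = 0.0015). These 4 falls, too, were called in all 22 other settings.

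Gene c54402_g1 is also a member with an opposite gene in its assembly cluster. In ripe fruit it had 2.77, 1.38 and 3.91 FPKM in DK, against 14.3, 15.4 and 21.1 FPKM in BDK. Its mate c54402_g2 had 16.3, 26.4 and 7.34 FPKM in DK, against 7.57, 8.83 and 3.00 FPKM in BDK. The pair's summed means were 19.4 FPKM in DK and 23.4 FPKM in BDK, closer than those of either gene, and how reads were divided between them was not tested. Another mate, c54402_g3, was lower in DK like the member, with means of 9.93 FPKM in DK and 59.4 FPKM in BDK at 85 days. Its summed means with the member were 12.6 FPKM in DK and 76.4 FPKM in BDK. The closeness of the sums thus held for the first pair and not for this one.

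Only 1 other member, c56772_g3, had a mate at least 2-fold higher in DK on the scale of means plus 1. It had 2.13, 1.63 and 2.39 FPKM in DK, against 7.31, 3.77 and 4.27 FPKM in BDK at 85 days, and its mate c56772_g5 averaged 2.26 FPKM in DK and 0.63 FPKM in BDK. Such mates were thus seen in 2 members (1.75%), against 2.87% of the expressed genes. The members came from 107 clusters, 7 of which held 2 members, and 53 members (46.5%) were alone in their cluster, against 54.5% of the expressed genes.

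In 6 members the 85-day BDK value, as mean FPKM plus 1, was below 0.5 times the 70-day value, and the 3 lowest are named for that. These ratios use means, which 1 library can set. Gene c53558_g1, the lowest at 85 against 70 days (0.24 times), had 42.7, 30.5 and 49.05 FPKM in DK, against 426, 389 and 582 FPKM in BDK at 55 days, 369, 986 and 479 FPKM at 70 days and 256, 79.4 and 100.3 FPKM at 85 days. Gene c54190_g2 (0.33 times) had 1.57, 2.50 and 1.8 FPKM in DK, against 70.7, 85.1 and 55.85 FPKM, 14.0, 30.98 and 31.8 FPKM, and 7.11, 13.3 and 2.54 FPKM in BDK at the 3 stages. In both, BDK was lower at 85 days than at 55 days with no overlap, and DK was lower still. The third of these was c53167_g1, described above. Its 85-day BDK libraries overlapped those of 70 days, and its 85-day mean (234 FPKM) was above its 55-day mean (143 FPKM).

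Set against 55 days, BDK at 85 days was higher in 32 members by limma's call, where 24.9% of all tested genes were, and lower in 21, where 31.2% were. The 53 calls make 46.5% of the members, against 56.1% of all genes. The rule chose members with BDK at 85 days above DK, which favours high values there, so no single member is tested on this step.

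The members varied between libraries of 1 group more than other expressed genes did. The highest and lowest of the 3 libraries differed by a median of 0.59 in DK, against 0.83, 0.97 and 1.17 in BDK at 55, 70 and 85 days, on the log2(FPKM + 1) scale. For the 13775 other expressed genes the medians were 0.18, 0.19, 0.18 and 0.34 in the same order. A range of at least 2-fold at 55 days, which the rule did not use, was found in 45 members (39.5%) and in 4.58% of the other genes. The gap was also present within bands of the 55-day mean. At 5 to 20 FPKM the median range was 0.80 for 35 members and 0.24 for 4402 other genes, at 20 to 100 FPKM 0.90 for 38 and 0.21 for 4942, and at 100 to 1000 FPKM 1.03 for 17 and 0.24 for 1201.

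In BDK at 55 days and at 70 days, each taken alone, 1 library was the highest in most members. Replicate 3 was the highest of the 55-day BDK libraries in 84 members (73.7%), against 31.4% of the other genes. At 70 days replicate 2 was highest in 70 members (61.4%), against 19.9%, and replicate 3 lowest in 63. Both held at once in 54 members (47.4%), against 8.46% of the other genes. The 70-day values entered the rule through the limit on the late change, which favours genes with a high 70-day library. The 70-day and joint counts are therefore a description only. The values of ripe fruit chose the members, so their order there is given with nothing read from it. In DK replicate 1 was highest in 57 members (50%), close to the 44.4% of the other genes, and replicate 2 lowest in 60 (52.6%), where 21.1% of the others had it lowest. In BDK at 85 days replicate 1 was highest in 92 members (80.7%), against 31.1% of the other genes, and replicate 2 lowest in 81 (71.1%), against 29.4%. A gene carried over the 2-fold limit by replicate 1 enters the set for that reason.

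In each group the library in which members were most often highest on the deposited scale was also the one with the most genes above 0. The leads in genes above 0 were narrowest in BDK at 70 days and then in DK. The libraries were DK replicate 1 with 35489 genes, against 32084 and 34156 in the other two, and in BDK replicate 3 at 55 days with 48737, against 36243 and 38189, replicate 2 at 70 days with 47865, against 47133 and 41870, and replicate 1 at 85 days with 39270, against 36298 and 34627. The part of these gene numbers in the members' levels was not tested. Dividing by the trimmed-mean factors brought the DK counts to 50 for replicate 1 and 46 for replicate 3, from 57 and 37. It left the BDK counts close, with BDK at 55 days replicate 3 and at 70 days replicate 2 both highest in 57 members, against 11.7% of the other genes. The library pattern was noticed in the data and is given as a description.

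**Figure D4:**
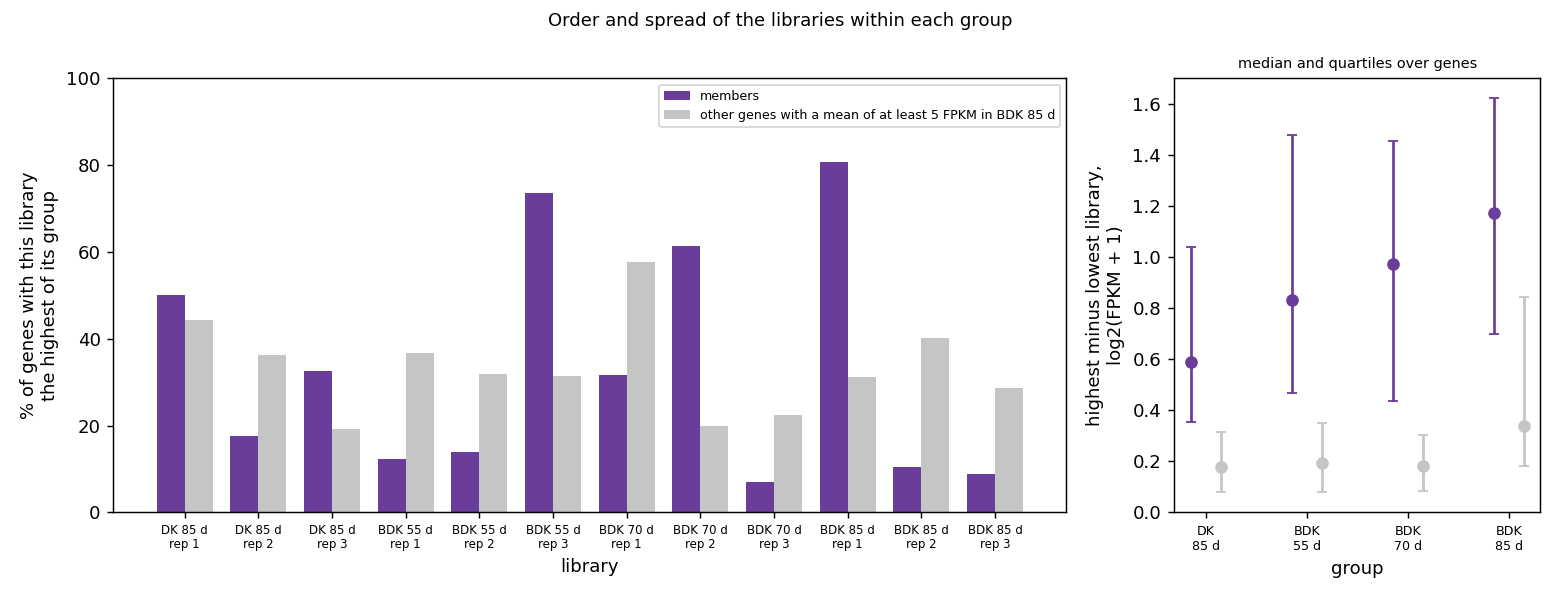
Left, share of genes (%) for which a library is the highest of its group of 3, for the 114 members and the 13775 other expressed genes. Right, difference between the highest and lowest library of a group in log2(FPKM + 1), as median with lower and upper quartile over genes, with members from 0.59 in DK to 1.17 in BDK at 85 days and other genes from 0.18 to 0.34.

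The nearest comparable genes are the 134 that met the same conditions but were at least 2 times as high at 85 as at 70 days in BDK. Their medians of the range within groups were 0.52 in DK, against 0.82, 0.68 and 1.02 in BDK at 55, 70 and 85 days. Replicate 3 was the highest 55-day library in 84 of them (62.7%) and replicate 2 the highest 70-day library in 75 (56.0%). In DK replicate 3 was highest in 55 of them (41.0%) and replicate 1 in 51 (38.1%), whereas among members replicate 1 led with 57, against 37 for replicate 3. Whether the sets differ in this was not tested. From 55 to 70 days 14.2% of these late-rising genes were at least 2-fold higher and 24.6% at least 2-fold lower, against the members' 21.9% and 30.7% given above, a difference that was not tested.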

How the data were processed

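The authors deposited 1 FPKM value per assembled gene and library, written to 2 decimals, per the file headers. FPKM sets a gene's fragments against its length and the library's fragments. Which assembler, quantifier, annotation and filters were used is not stated. Summed FPKM ran from 817744 to 1219280, so libraries were not on a common total, and without counts the depth is unknown and no counting interval can be given. No library copied another: the most similar pair had equal values in 11.9% of tested genes.

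Members were chosen on FPKM as deposited, and levels are given on that scale. For tests, FPKM was divided by trimmed-mean factors (30% of log ratios and 5% of levels trimmed at each end, 0.898 to 1.11), genes reaching 1 FPKM in 3 or more libraries entered, and log2(FPKM + 1) was fitted with limma 3.58.1 in R 4.3.3 to all 12 libraries as 4 groups, with variances following the mean level. P-values were adjusted by Benjamini-Hochberg over all 23074 genes, and an adjusted p below 0.05 is a call. The procedure was tested on simulated data. Descriptions were computed in Python 3.11.15.

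Members, tests and alternatives were chosen with earlier results of these data known. Named are the 8 members highest in BDK at 85 days, the 6 with the largest fold below BDK in DK, the 4 largest called rises and 4 largest called falls from 55 to 70 days, the 3 lowest at 85 against 70 days, those nearest the limits, and those with an opposite gene in their assembly cluster. Alternatives were other factors, filters and pseudocounts, the replicate number or the library set in the model, the compared groups alone, a 2-fold minimum and each library left out.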

Additional observations from a re-analysis of the deposited data

How the results depend on the processing

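With the library set in the model, 14 members were called higher at 70 than at 55 days in place of 23, and the cause was not tested. With each library left out in turn, members called for that step numbered 40 to 56 (17 to 33 higher, 20 to 30 lower), and for 85 against 55 days 43 to 57 (23 to 40 higher, 15 to 31 lower). The replicate block gave 46 and 53 calls for these comparisons, against 48 and 53. The share of all tested genes called was not counted under any of the alternatives. Counts of calls under them therefore cannot show whether a change is particular to the members. Same-numbered libraries of different groups had deviations that correlated at -0.14 to 0.17, and not every library correlated best with its own number. With 3 libraries per group such correlations cannot show whether same-numbered libraries were paired. The block ended the call of c51182_g1 (limma's adjusted p = 0.066). The other factors, filters, pseudocounts, the compared groups alone and a 2-fold minimum kept these counts within 1.5 times. The rule itself gave 64 genes with a pseudocount of 5, 338 with a limit of 1.5-fold below BDK, 40 with 3-fold, and 92 to 167 with each library left out. With scaled values it gave 109 (trimmed mean) or 118 (median of ratios), each with 99 of the 114.

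In 4 named members not called from 55 to 70 days the log2 change turned sign when a library was left out. Members named only for lying near the limits, and members not named, were not counted here. The log2 change of c41227_g2 (-0.20 with all libraries) was 0.10 without BDK at 55 days replicate 3 and 0.31 without BDK at 70 days replicate 1, over a range of -0.75 to 0.31. That of c53558_g1 (0.33) was -0.090 without BDK at 70 days replicate 2, over -0.090 to 0.65. That of c54763_g2 (-0.61) was 1.06 without BDK at 55 days replicate 3, over -1.90 to 1.06. That of c56154_g2 (0.45) was -0.25 and -0.59 without BDK at 55 days replicate 1 or 2, over -0.59 to 2.19. Without BDK at 55 days replicate 3, c55282_g1 was called (2.11, adjusted p = 0.010, range over settings 0.010 to 0.54). Depth is unknown, so how far it limits low values could not be measured.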

Other observations

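The order of the libraries was also counted among the most uneven members, those with at least a 2-fold range within a group. Of the 45 such members in BDK at 55 days, replicate 3 was highest in 40 (88.9%), against 323 of 631 such genes (51.2%) among non-members that averaged 5 FPKM or more in BDK at 85 days. Of the 53 in BDK at 70 days, replicate 2 was highest in 31 (58.5%), below its 61.4% among all members, against 33.8% of 574 others. The 70-day values entered the rule through the limit on the late change. The DK values entered it through the 2-fold limit, the lack of overlap and the need for a DK library above 0. Those of BDK at 85 days entered it through the minimum level, both 2-fold limits and the lack of overlap. The orders in these groups are a description only. Of the 32 in DK, replicate 3 was highest in 16 (50%) and replicate 1 in 15 (46.9%), against 47.3% and 33.1% of 528 others. Replicate 2 was lowest in 26 (81.2%), against 41.7%. Of the 72 in BDK at 85 days, replicate 1 was highest in 65 (90.3%), against 48.5% of 3190 others.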
